A study of Mus musculus with 35 samples.

Results

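Short interspersed elements (SINEs) are short, repeated DNA segments copied through RNA into many places of the genome. In cultured mouse pre-B cells, 25474 of 537489 transcription factor peaks were centred on one. Each of these peaks was chosen by its deposited annotation, which had to give a repeat of the class SINE at the peak centre, and the height of the peak was not used. They come from 17 peak lists of 10 factors, and the whole series holds 1213505 peaks in 33 lists.

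The series mapped chromatin in mouse stromal-adherent pre-B cell progenitors at passages 3 to 8 by chromatin immunoprecipitation and sequencing (ChIP-seq). One group is wild type (WT). The other, IKDN, derives from IKDN CD2 Cre mice, in which Cre recombinase under the CD2 promoter, active in lymphoid cells, leads to a dominant-negative form of the factor Ikaros. Both groups are cultures that adhere to stroma, and the labels used here give neither animal age nor the number of animals behind a culture. Aiolos, E2A, EBF1, PAX5, IRF4, ETS1 and TEAD1 were mapped in both genotypes, Ikaros in WT cells only, and LHX2 and LMO2 in IKDN cells only. The same cells have lists for the histone marks H3K27ac, H3K4me1, H3K4me2, H3K4me3, H3K27me3 and H3K36me3, for the Mediator subunit MED1 and for RNA polymerase II (RNAPII). Each target and genotype has 1 library, so no difference can be set against the spread between cultures and no test was made. Intervals are exact 95% Clopper-Pearson intervals and cover counting error only.

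Mouse SINEs fall into families that the annotation names by their source. B1 elements, which the annotation places in the Alu family, derive from the RNA of the signal recognition particle, while B2 elements, with the older B3 and B3A, derive from a transfer RNA. B4 elements join a transfer-RNA-derived ID part to a B1 part, and MIR elements are ancient and shared among mammals. SINEs contain RNA polymerase III promoter sequences, and some families, B2 among them, are known to carry copies of transcription factor motifs to new places. Ikaros and its relative Aiolos are zinc finger factors of lymphoid cells. E2A, EBF1 and PAX5 set up the B lineage, IRF4 and ETS1 act in B cell differentiation, TEAD1 is the DNA-binding partner of YAP, LHX2 is a homeodomain factor of stem cells, and LMO2 is an adaptor that binds DNA only through partner factors.

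No genome sequence was used here, so the letters of a member can be shown only where its centre lies in a RefSeq promoter window, which runs from 250 bases before to 50 bases after a gene start (GRCm38.p6, 32815 windows). Of the 25474 members, 38 had a centre at least 10 bases inside such a window, in 23 windows. The first 3 sequences below are windows with peaks of several factors centred on a B3, a B2_Mm2 and a MIRb element. The fourth is a window with an EBF1 peak centred on a B3 element. Where the element starts and ends within a window is not known here, so a marked match need not lie in it. All 4 belong to long non-coding RNA genes and are written on the gene's strand; capitals mark matches on either strand to short motifs of the factors with a peak there.
Gm46229: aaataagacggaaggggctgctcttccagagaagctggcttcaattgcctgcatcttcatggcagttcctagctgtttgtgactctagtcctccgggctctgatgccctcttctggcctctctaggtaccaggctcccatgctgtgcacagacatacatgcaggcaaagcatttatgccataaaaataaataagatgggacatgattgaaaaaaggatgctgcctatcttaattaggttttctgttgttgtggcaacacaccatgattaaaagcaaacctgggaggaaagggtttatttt
Gm39044: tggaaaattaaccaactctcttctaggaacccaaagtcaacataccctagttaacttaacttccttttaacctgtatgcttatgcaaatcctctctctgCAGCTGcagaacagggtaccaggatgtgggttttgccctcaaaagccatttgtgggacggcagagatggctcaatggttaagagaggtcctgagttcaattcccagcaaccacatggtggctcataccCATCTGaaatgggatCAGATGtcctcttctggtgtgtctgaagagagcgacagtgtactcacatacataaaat
B230206L02Rik: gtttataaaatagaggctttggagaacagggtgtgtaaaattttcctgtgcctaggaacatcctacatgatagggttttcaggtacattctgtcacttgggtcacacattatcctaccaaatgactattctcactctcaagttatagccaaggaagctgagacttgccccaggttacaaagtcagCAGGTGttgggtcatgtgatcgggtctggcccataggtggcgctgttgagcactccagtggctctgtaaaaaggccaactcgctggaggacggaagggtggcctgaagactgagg
Gm30005: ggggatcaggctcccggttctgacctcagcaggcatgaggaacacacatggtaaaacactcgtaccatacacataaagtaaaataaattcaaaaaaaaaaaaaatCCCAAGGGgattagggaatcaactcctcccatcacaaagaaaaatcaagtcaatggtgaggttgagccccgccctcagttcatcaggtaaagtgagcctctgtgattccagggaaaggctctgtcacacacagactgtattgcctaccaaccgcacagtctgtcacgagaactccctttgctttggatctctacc

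The Gm46229 window (chr10:67311383-67311682, + strand) held peaks on B3 of Ikaros and IRF4 in WT and of ETS1 and TEAD1 in IKDN cells. Their centres lay between base 94 (TEAD1) and base 140 (ETS1) of the window, and no searched motif of those factors was found in it. By score these peaks ranked 35252nd of 42655 (Ikaros), 16830th of 17973 (IRF4), 17105th of 35517 (ETS1) and 42373rd of 47764 (TEAD1). The Gm39044 window (chr7:84164865-84165164, - strand) held 6 peaks of 5 factors on B2_Mm2. Their centres ran from base 156 (E2A, IKDN, rank 3631 of 15392) to base 189 (EBF1, WT, rank 16704 of 25627). The capitals of this window are 3 E-boxes, the sites of E2A, starting at bases 100, 228 and 243. The B230206L02Rik window (chr11:94133206-94133505, + strand) held peaks on MIRb. Its E-box CAGGTG starts at base 186. Beside it lay the centres of the WT peaks of E2A at base 182 (rank 12738 of 16048) and PAX5 at base 184 (rank 64947 of 82361). The PAX5 peak of IKDN cells was centred at base 115 (rank 63294 of 86703). The Gm30005 window (chr8:124088553-124088852, - strand) held an EBF1 peak of IKDN cells on B3, centred at base 16 (rank 19923 of 33414). There a match to the EBF1 half-sites CCCNNGGG starts at base 106, and whether it lies in the element is not known. A match is a description only: of all 32815 windows, 13.7% hold CCCNNGGG, 16.3% CAGCTG, 20.2% CAGGTG and 17.2% CATCTG. The other motifs searched, each in the windows with a peak of its factor, were TGGGAA for Ikaros (25.6% of windows), GAAANNGA for IRF4 (20.9%), CCGGAA (14.9%) and CAGGAAG (13.3%) for ETS1, GCGTGAC for PAX5 (2.09%), GGAATG for TEAD1 (14.7%) and TAATTA for LHX2 (5.30%).

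EBF1 stood apart from the other factors in how many of its peaks were centred on a SINE. The share was 9.41% of 25627 peaks in WT cells (2411 peaks, interval 9.05 to 9.77%) and 8.50% of 33414 peaks in IKDN cells (2841 peaks, interval 8.21 to 8.81%). The other 15 factor lists ranged from 2.29% (ETS1, WT) to 5.53% (TEAD1, IKDN), with a median of 3.55%. No interval of these 15 reached those of EBF1. Ikaros in WT cells had 4.76% (2032 of 42655), PAX5 4.96% in WT and 4.74% in IKDN cells, and LHX2 4.24% (1129 of 26653). Also at the low end, LMO2 had 2.79% (431 of 15441), and IRF4 and E2A of IKDN cells 2.78% and 2.77%.

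Nearly all members were annotated as intronic or intergenic. Among the peaks so annotated EBF1 again came first, with 10.9% in WT and 9.58% in IKDN cells, and the other lists ran from 3.31% (LMO2) to 6.62% (TEAD1, IKDN). Counted over all peaks again, the 16 lists of marks, MED1 and RNAPII ranged from 1.90% (H3K4me3, IKDN) to 13.3% (H3K36me3, IKDN). On that count H3K36me3, a mark of transcribed gene bodies, and RNAPII sat above EBF1 (13.1 and 10.6% against 9.41% in WT cells). H3K4me3, a mark of promoters, sat below all factors, in WT cells (2.27%) only just below ETS1 (2.29%). Among intron and intergenic peaks of WT cells, H3K36me3 had 15.2%, RNAPII 13.4% and H3K4me3 3.50%, the last above LMO2. Outside Aiolos, 48.7 to 55.1% of SINE peaks were intronic, and the Aiolos lists had 30.8% (WT) and 34.8% (IKDN), against 43.3 and 42.7% of their intron and intergenic peaks off repeats. The median SINE peak lay nearer to a gene start than the median peak off repeats in 16 of 17 lists, for example 18.6 against 25.8 kb for EBF1 in WT cells, with Aiolos in WT cells as the exception (35.5 and 27.2 kb).

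**Figure D1:**
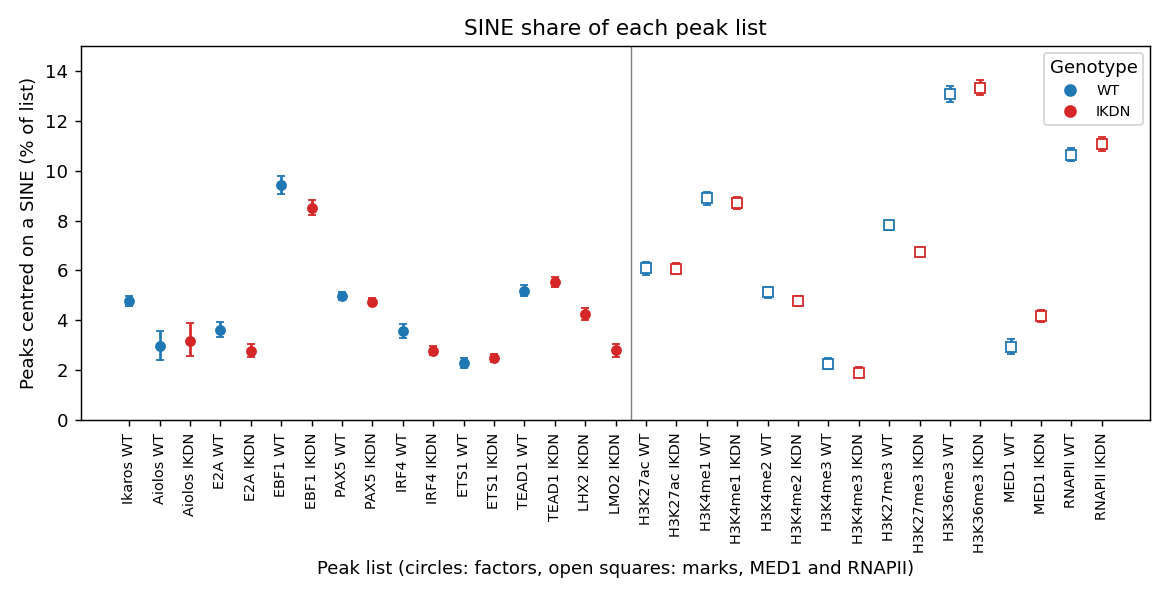
Share of peaks centred on a SINE (vertical axis, % of the list) in each of the 33 peak lists (horizontal axis), with exact 95% intervals; colours give the genotype, circles factors and open squares marks, MED1 and RNAPII. Both EBF1 lists (9.41 and 8.50%) lie above the other factor lists (2.29 to 5.53%).

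The list lengths differ, from 2802 peaks (Aiolos, IKDN) to 86703 (PAX5, IKDN), and the deposited files give no read depth. The share of LINE elements, another repeat class, also set lists apart: it ran from 2.68% (E2A, IKDN) to 30.1% (PAX5, WT), and the part of such differences in the SINE results was not tested. Taking the 2802 top-scored peaks of every list, the SINE share was 8.28% for EBF1 in WT and 5.28% in IKDN cells, and 0.54 to 3.18% in the others. 3 lists lack peaks on whole chromosomes or large parts of them: E2A in WT (9 chromosomes), ETS1 in WT (1) and PAX5 in IKDN cells (2). The antibody labels of E2A (IKDN), IRF4 and PAX5 name 1 catalogue entry, and those of E2A (WT), ETS1 (IKDN) and LHX2 another, so that 8 lists carry a label shared with another target. Of these lists, 38.3% of the E2A SINE peaks of IKDN cells overlapped an IRF4 peak and 53.6% a PAX5 peak of the same genotype, and 15.7% of LHX2 SINE peaks overlapped an ETS1 peak. Off repeats these shares were higher, 48.4, 62.6 and 32.5%.

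B2 was the largest family among the members. Over all lists 11373 members (44.6%) lay on B2-family elements, 6397 (25.1%) on B4, 4981 (19.6%) on the Alu family, 2007 (7.88%) on MIR and 504 (1.98%) on ID, with 143 on Deu and 69 on the tRNA family. These families hold 37 named elements. B3 alone accounted for 6770 members (26.6%), followed by B3A (2408), B4A (2162), ID_B1 (1692), B2_Mm2 (1516), RSINE1 (1503), B4 (1040), B1_Mus2 (758), MIRb (730) and PB1D10 (642). The most frequent ID, Deu and tRNA elements were ID4_ (204), AmnSINE1 (135) and LFSINE_Vert (42). SINE peaks of the 16 lists of marks, MED1 and RNAPII lay less on B2, 18.02 to 35.2%, and had 29.8 to 44.9% on Alu, against 8.27 to 48.1% in the factor lists. The B2 share of each of the 17 factor lists, 29.8% (Aiolos, WT) to 64.3% (Ikaros, WT), lay above the median of those lists, 24.8%.

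**Figure D2:**
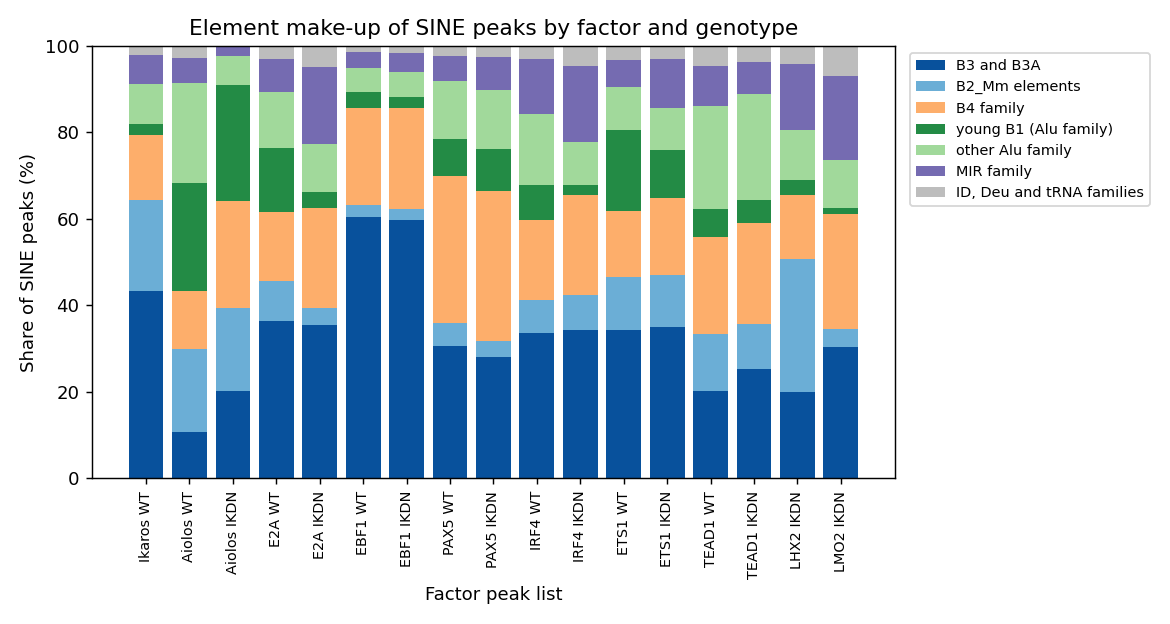
Element make-up of the SINE peaks (vertical axis, % of SINE peaks) in the 17 factor lists (horizontal axis), stacked by element group. B3 and B3A fill 60.5 and 59.7% of the EBF1 bars, and B2_Mm elements are widest in LHX2 (30.8%).

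EBF1 was concentrated on B3. This 1 element held 1277 of the 2411 EBF1 SINE peaks in WT cells (53.0%, interval 50.9 to 55.0%) and 1479 of 2841 in IKDN cells (52.1%, interval 50.2 to 53.9%). The next highest B3 share was that of Ikaros, 31.2% (634 peaks, interval 29.2 to 33.3%), and the lowest were those of LHX2, 11.9%, and of Aiolos in WT cells, 6.73% (7 of 104). In the lists of marks B3 held 6.91 to 16.1% of SINE peaks. Counted against all intron and intergenic peaks, B3 took 5.75% of EBF1 peaks in WT and 4.99% in IKDN cells, against 0.24 to 1.96% in the other factor lists and 0.24 to 2.27% in the lists of marks. The second element of EBF1 was B4A (10.4 and 10.98% of its SINE peaks), and the younger relative B2_Mm2 held only 2.12 and 1.97%.

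On SINEs other than B3, EBF1 had 1134 peaks in WT and 1362 in IKDN cells. These are 5.11 and 4.59% of its intron and intergenic peaks, within the 2.62% (LMO2) to 5.47% (TEAD1, IKDN) of the other factor lists.

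Ikaros and LHX2 had the largest numbers of peaks on B2_Mm elements, the younger members of the B2 family (B2_Mm1a, B2_Mm1t and B2_Mm2). Of the Ikaros SINE peaks 20.9% (425) lay on them, of the LHX2 peaks 30.8% (348), of the Aiolos peaks 19.2% in WT and 19.1% in IKDN cells (20 and 17), and of the EBF1 peaks 2.61% in WT and 2.499% in IKDN cells. B2_Mm2 alone gave 14.4% for Ikaros (interval 12.9 to 16.0%) and 18.2% for LHX2 (interval 16.0 to 20.6%). In LHX2, B2_Mm2 was the most frequent SINE and came before B3. The lists of marks had 4.94 to 14.0% on B2_Mm elements.

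PAX5, which had the largest number of members (4089 and 4109), was spread over families, and B4 elements held 34.1% of its SINE peaks in WT and 34.7% in IKDN cells. These were the highest B4 shares of all factor lists, which otherwise ran from 13.5 to 26.5%. TEAD1 had 30.5% Alu, 33.3% B2 and 22.5% B4 in WT cells. As a share of SINE peaks, MIR elements were most frequent with LMO2 (19.5%, 84 of 431), E2A of IKDN cells (17.8%), IRF4 of IKDN cells (17.4%) and LHX2 (15.4%). They were least frequent with EBF1 (3.61 and 4.36%) and Aiolos of IKDN cells (2 of 89). Counted against all intron and intergenic peaks, MIR took 0.39% of EBF1 peaks in WT and 0.42% in IKDN cells. That is within the 0.09% (Aiolos, IKDN) to 0.76% (LHX2) of the other factor lists. AmnSINE1, a still older element, was most frequent with LMO2, 3.02% of the SINE peaks, and E2A of IKDN cells, 2.11%, and held 0.18% of those of EBF1 in IKDN cells. The 3 younger B1 elements B1_Mm, B1_Mus1 and B1_Mus2 held 25.0 and 26.97% of the Aiolos SINE peaks, 18.8% of those of ETS1 in WT and 14.8% of those of E2A in WT cells. They held 1.39% with LMO2 and 2.19% with IRF4 of IKDN cells.

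Between genotypes the SINE share of a factor differed by at most 0.91 percentage points, and not in 1 direction. On the chromosomes complete in both lists, it was higher in IKDN cells for 3 of 7 factors and lower for 4. EBF1 had 9.42% in WT and 8.51% in IKDN cells, E2A 3.61 and 2.79%, IRF4 3.56 and 2.78%, and PAX5 5.07 and 4.75%, and in these 4 factors the intervals did not overlap. TEAD1 had 5.19 and 5.52%, ETS1 2.29 and 2.43%, and Aiolos 2.92 and 3.05%, with overlapping intervals. For E2A and ETS1 the antibody label differs between WT and IKDN cells, so that antibody and genotype cannot be told apart in these pairs. The lowest ratio was that of E2A, whose IKDN share was 0.774 of the WT share. The directions for ETS1 and TEAD1 turned when the same number of top-scored peaks was taken from both lists (-0.66 and -0.51 percentage points, IKDN minus WT).

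The make-up of the SINE peaks also differed between genotypes, in the Alu and MIR families above all. Alu elements held 24.6% of the IRF4 SINE peaks in WT and 12.3% in IKDN cells, 26.8 and 16.5% of those of E2A, and 28.7 and 21.0% of those of ETS1. In these 3 factors the intervals did not overlap, and the younger B1 elements showed the same order: 8.14 and 2.19% for IRF4, 14.0 and 5.36% for E2A, 18.8 and 10.96% for ETS1. MIR elements went the other way, from 7.77% in WT to 15.6% in IKDN cells for E2A and from 5.99 to 7.67% for PAX5, both with separate intervals, and from 12.7 to 17.4% for IRF4 with overlapping ones. In TEAD1 (9.14 and 7.55%) and Aiolos (5.88 and 2.35%) MIR was lower in IKDN cells, and in PAX5 Alu was higher (21.7 and 23.2%), all with overlapping intervals. Such shares are parts of a whole, so a fall in 1 family raises the others. Counted against intron and intergenic peaks of all chromosomes, MIR was nearly level for IRF4 (0.65% in WT, 0.67% in IKDN cells). Alu so counted fell from 1.27 to 0.47% for IRF4. MIR so counted was 0.38 and 0.64% for E2A, and 0.35 and 0.43% for PAX5. The B3 and B3A share was nearly the same in both genotypes for EBF1 (60.5 and 59.7%), E2A (36.9 and 35.7%), IRF4 (33.5 and 34.2%) and ETS1 (34.4 and 35.3%), and higher in IKDN cells for TEAD1 (20.1 and 25.1%, intervals apart). The whole B2 family was lower in IKDN cells for PAX5 (35.7 and 31.8%, intervals apart).

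Peaks of 1 genotype were next looked up in the list of the same factor in the other genotype, counting an overlap of at least 1 bp as found. For EBF1, 79.2% of the WT SINE peaks were found in IKDN cells (1910 of 2411, interval 77.5 to 80.8%), against a background of 74.7% over all EBF1 peaks and 78.0% over those off repeats. In the other direction 68.0% of the IKDN SINE peaks were found in WT cells, against 57.3% over all peaks and 54.5% off repeats. On B3 the shares were 84.6% (1080 of 1277) and 74.0% (1095 of 1479), and on Alu 59.6 and 55.7%. EBF1 was the only factor of the 7 whose SINE peaks were found more often than all its peaks in both directions, a difference between factors that was not tested.

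For the other 6 factors the SINE peaks were found less often than all peaks in both directions. For PAX5, 67.8% of WT SINE peaks were found in IKDN cells, against 80.3% of all peaks, and 62.8% of IKDN SINE peaks in WT cells, against 69.0%. The WT SINE peaks of ETS1 gave 49.7% against 68.6%, those of IRF4 47.7% against 64.3%, those of TEAD1 52.0% against 55.6%, and those of E2A 23.9% against 33.2%. From IKDN to WT, ETS1 gave 31.0% against 47.2%, IRF4 33.9% against 39.0%, TEAD1 35.0% against 39.1%, and E2A 53.1% against 59.1%. Aiolos, with the shortest lists, gave 8 of 102 WT SINE peaks (7.84% against 13.3%) and 8 of 85 IKDN SINE peaks (9.41% against 16.7%). For Aiolos in both directions and E2A from IKDN to WT, the share of all peaks lay within the interval of the SINE peaks. Outside Aiolos, where 18.7% were found, peaks off repeats gave smaller gaps from IKDN to WT. They were found in 33.9% for ETS1, 35.2% for IRF4 and 54.8% for E2A, each within the interval of the SINE peaks. For TEAD1 they gave 37.1%, and for PAX5 57.8%, below its SINE peaks. From WT to IKDN, peaks off repeats were found more often than SINE peaks in all 6 factors. There they gave 74.3% for PAX5, 65.3% for ETS1, 65.8% for IRF4, 54.5% for TEAD1 and 44.1% for E2A. For Aiolos they gave 13.4%, within the interval of its SINE peaks. Among elements, MIR peaks of WT cells were found more often than Alu peaks in PAX5 (78.5 and 72.7%), IRF4 (63.0 and 30.6%) and E2A (42.5 and 16.7%). In WT cells the order was the same for EBF1 and ETS1, and the opposite for TEAD1 (45.3 and 50.4%) and Aiolos (0 of 6 MIR peaks and 10.4%). From IKDN to WT, MIR peaks were found less often than Alu peaks in PAX5 (56.1 and 63.3%), IRF4 (35.0 and 41.6%), ETS1 (16.5 and 41.9%) and Aiolos. They were found more often in EBF1 (60.5 and 55.7%), E2A (45.7 and 40.5%) and TEAD1 (39.2 and 35.5%). The order thus turned with the direction in PAX5, IRF4, ETS1 and TEAD1, and not in EBF1, E2A and Aiolos. The younger B1 peaks of WT E2A were found in 2.78% and those of WT IRF4 in 11.5%.

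**Figure D3:**
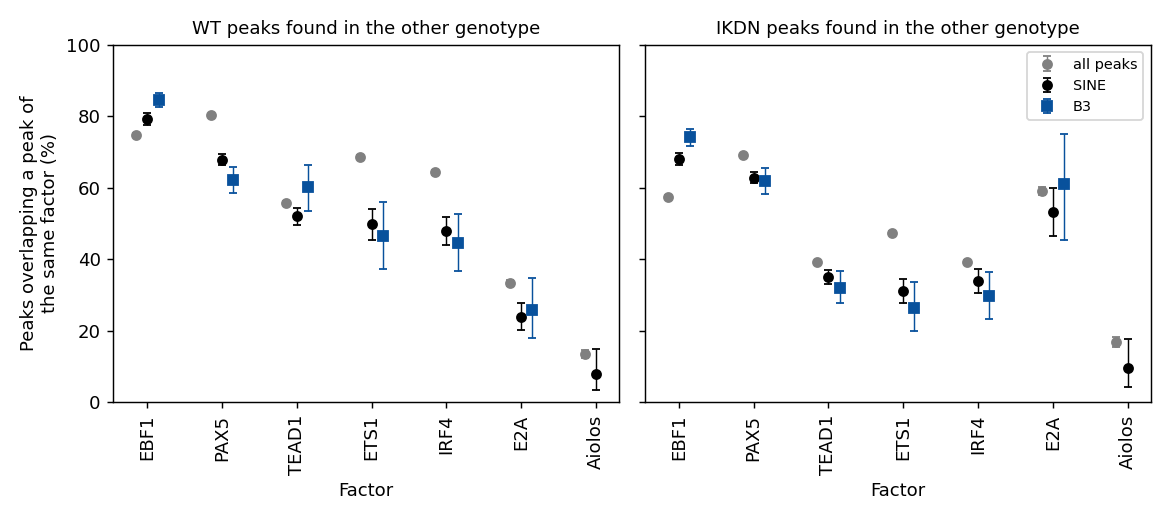
Share of peaks of 1 genotype that overlap a peak of the same factor in the other genotype (vertical axis, %) for 7 factors (horizontal axis), with exact 95% intervals, for all peaks (grey), SINE peaks (black) and B3 peaks (blue, where there were 20 or more). EBF1 SINE and B3 peaks (79.2 and 84.6% from WT) lie above the grey point of EBF1 (74.7%).

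The deposited Peak Score, whose scale the sources used here do not give, was used only to rank peaks within a list. EBF1 peaks of WT cells on SINEs were spread over the whole range of scores: the SINE share was 8.12% in the top decile of scores and 8.82% in the lowest, with 10.6% at most. In IKDN cells it was lower among the strongest EBF1 peaks, 5.42% in the top decile against 10.4% in the sixth and 8.86% in the lowest. The median B3 peak of EBF1 stood at the 54.8th percentile of the WT list and the 49.5th of the IKDN list, against 52.5 and 52.8 for peaks off repeats. In PAX5, Ikaros, ETS1 and TEAD1 the SINE share was higher among weak than among strong peaks. It went from 2.28% in the top to 8.64% in the lowest decile for PAX5 in WT cells, from 2.23 to 7.99% for Ikaros, from 0.36 to 4.58% for ETS1 in WT, and from 2.64 to 8.00% for TEAD1 in IKDN cells. The top decile was also below the lowest, with separate intervals, in LHX2 (2.66 and 5.85%), IRF4 and E2A. IRF4 had 2.73 and 4.78% in WT and 2.30 and 3.72% in IKDN cells. E2A had 1.93 and 3.99% in WT and 1.56 and 3.57% in IKDN cells. In LMO2 (1.62 and 2.78%) and Aiolos (2.28 and 2.84% in WT, 3.21 and 3.56% in IKDN cells) the intervals overlapped. Ikaros peaks on B2_Mm elements had a median at the 19.7th percentile, and those on MIR at the 43.0th. MIR peaks ranked highest among the families with E2A in WT cells (70.1th percentile).

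**Figure D4:**
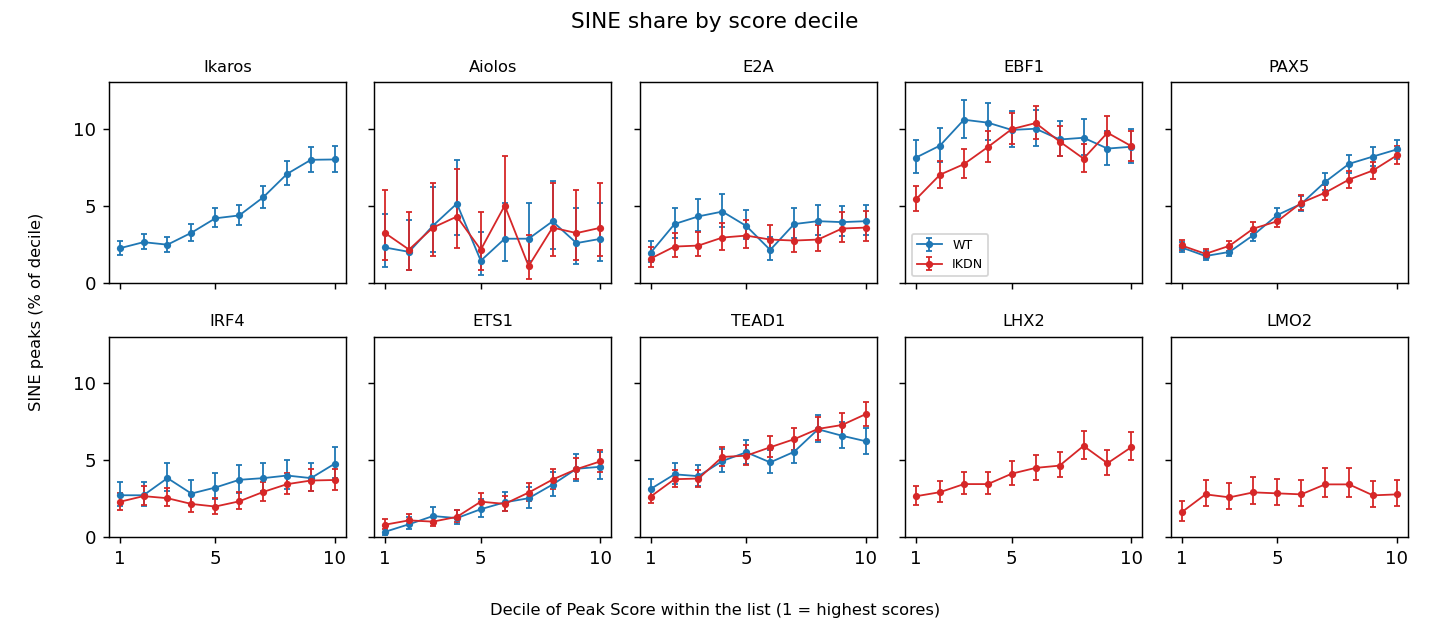
SINE share (vertical axis, % of the decile) by decile of the Peak Score within each list (horizontal axis, 1 is highest) for 10 factors, with exact 95% intervals; colours give the genotype. The EBF1 WT line stays between 8.12 and 10.6%, whereas PAX5 WT goes from 2.28 to 8.64%.

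Among the strongest peaks SINEs were most frequent in EBF1. Of the top 100 EBF1 peaks, 9 were SINE peaks in WT cells, 7 of them on B3, and 6 in IKDN cells, 5 of them on B3. LHX2 had 4 among its top 100, and Ikaros, ETS1 and TEAD1 had none. The strongest SINE peak of EBF1 in IKDN cells (rank 3 of 33414) lay on B3, 61.5 kb from the start of Ppp2r5a, which encodes a regulatory subunit of protein phosphatase 2A, and that in WT cells (rank 11 of 25627) on B3 in an intron, nearest to Dexi. LHX2 had its strongest SINE peak at rank 9 of 26653, on the old element MamSINE1. IRF4 had its strongest SINE peak at the same place in both genotypes, on AmnSINE1 45.7 kb from Icam2, which encodes an adhesion molecule (ranks 52 of 17973 and 31 of 29589). E2A also had it at the same place in both, on B3A near Cmah, an enzyme of sialic acid synthesis (ranks 80 of 16048 and 87 of 15392).

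Strongest SINE peaks of other lists lay on several families. PAX5 had ID_B1 near Btrc in WT cells (rank 77 of 82361) and PB1D7 near Ccng2 in IKDN cells (rank 117 of 86703). TEAD1 had PB1D10 near Rgs6 in WT cells (rank 107). ETS1 had B1_Mus2 near Ly6e (rank 475, WT) and B4A near Klrb1b, a natural killer receptor gene (rank 444, IKDN). Aiolos had B2_Mm2 nearest to Csf2ra (rank 37, WT) and B1_Mm near Dclre1c, the gene of the V(D)J recombination nuclease Artemis (rank 118, IKDN). The strongest Ikaros SINE peak lay on B3 near Tmem194 (rank 226 of 42655), and that of LMO2 on MIR near Kansl1l (rank 53 of 15441).

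SINE peaks overlapped the marks of active regulatory DNA less often than other intron and intergenic peaks did. H3K27ac, found at active promoters and enhancers, overlapped 23.6% of the SINE peaks of the 8 WT factor lists together and 44.4% of the peaks off repeats, against a background of 44.8% over all WT factor peaks. In the 9 IKDN lists it overlapped 26.0% of SINE peaks and 49.9% of peaks off repeats, with a background of 49.2%. In the top-scored 50% of each list the SINE values were higher, 38.4% in WT and 41.9% in IKDN cells. Pooled shares off repeats were not worked out for the top-scored 50%. These values therefore cannot be set against the 44.4 and 49.9% of whole lists. Over whole lists, SINE peaks were lower than peaks off repeats in each of the 17 lists. The overlap ranged from 15.7% of SINE peaks against 31.6% off repeats for PAX5 in WT cells to 64.3 against 73.8% for LMO2. In EBF1 the values were 18.2 against 37.8% in WT and 16.4 against 37.9% in IKDN cells.

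Elements differed within that. EBF1 peaks on B3 overlapped H3K27ac in 14.6% (WT, 186 of 1277) and 12.4% (IKDN, 183 of 1479). Within Ikaros, B2_Mm peaks overlapped it in 10.6% (45 of 425) and B3 peaks in 27.6%, and within LHX2 in 13.2% (46 of 348) and 35.8%. MIR peaks were close to peaks off repeats in several lists: 61.3% for Ikaros against 59.5%, 37.9% for EBF1 in WT against 37.8%, and 71.4% for LMO2 against 73.8%. In ETS1 of WT cells MIR peaks reached 87.5% (28 of 32), above the 68.5% off repeats.

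**Figure D5:**
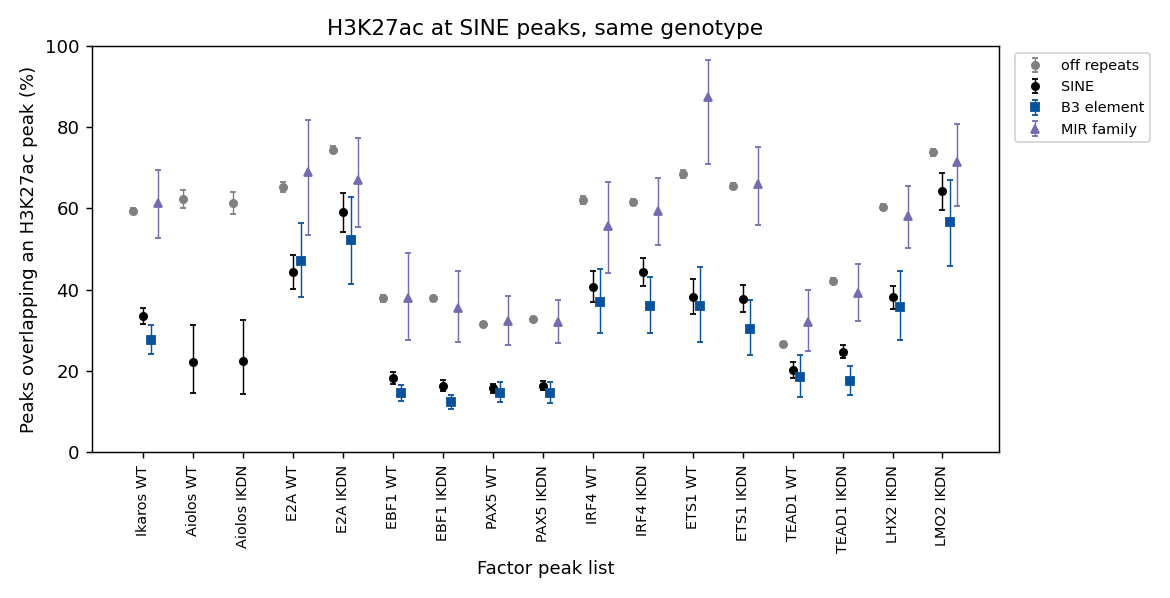
Share of peaks that overlap an H3K27ac peak of the same genotype (vertical axis, %) in the 17 factor lists (horizontal axis), with exact 95% intervals, for peaks off repeats (grey), SINE peaks (black), B3 peaks (blue) and MIR peaks (purple), each where there were 20 or more. SINE peaks lie below peaks off repeats in each list, and MIR peaks above B3 peaks.

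The other marks were compared in the same way. H3K4me2, H3K4me3, MED1 and RNAPII overlapped SINE peaks less often than peaks off repeats in each of the 17 lists, and H3K4me1, a mark of enhancers, in 16 of 17. For EBF1 in WT cells the values were 30.8 against 51.7% for H3K4me1, 4.07 against 13.3% for H3K4me3, and 2.41 against 8.75% for MED1. H3K36me3 was the exception, overlapping SINE peaks more often in 16 of 17 lists, with 20.1 against 9.26% for EBF1 in IKDN and 12.2 against 4.12% for Ikaros in WT cells. H3K27me3, the mark of Polycomb silencing, was lower at SINE peaks in 15 of 17 lists and overlapped 0.70% (LMO2) to 10.1% (Aiolos, IKDN) of them. SINE peaks are also weaker peaks in most lists, and the part of peak strength in these overlaps was not tested. Within the top-scored 50% of each list H3K27ac was again lower at SINE peaks than off repeats in each of the 17 lists.

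Most SINE regions held SINE peaks of 1 factor only. Merging overlapping SINE peaks gave 10103 regions in WT and 11016 in IKDN cells, of which 8732 and 9566 held 1 factor. A second factor was present on a SINE in 13.6% of the WT and 13.2% of the IKDN regions, against 26.6 and 32.0% for regions off repeats merged in the same way. Only peaks themselves centred on a SINE were merged, so an overlapping peak centred beside the short element was not counted. The part of this in the difference was not tested. In WT cells B3 regions (17.3%) were shared more often than B4 (10.5%) or Alu (9.73%) regions. In IKDN cells MIR regions were shared most often (22.1%), with Alu at 7.99%. EBF1 shared little: of its WT SINE peaks 13.9% overlapped an Ikaros peak, 11.7% a PAX5 peak and 8.16% an E2A peak, against 33.05, 24.4 and 17.4% of its peaks off repeats. Of the LMO2 SINE peaks 63.5% overlapped a PAX5 peak and 47.1% an E2A peak of IKDN cells, below the 67.4 and 54.6% of its peaks off repeats. Ikaros peaks on B3 overlapped EBF1 peaks of WT cells in 21.9%, near the 21.2% of Ikaros peaks off repeats. E2A peaks of WT cells on B3 did so in 33.6% (38 of 113), against 22.0% off repeats.

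Both genotypes together gave 15768 regions. The 10 found in most libraries held SINE peaks from 11 to 13 lists, mostly on B3 or B3A. The first, on B3 at chr1:191458262-191458671 (mm10), 61.5 kb from Ppp2r5a, held SINE peaks from 13 lists of 9 factors. Its Peak Score was 273.7 in the EBF1 WT list and 431.4 in the EBF1 IKDN list, ranks 15 and 3. IRF4 ranked it 59th of 17973 in WT and 107th of 29589 in IKDN cells, whereas PAX5 ranked it 26422nd of 82361 in WT cells. It overlapped H3K27ac, H3K4me1, H3K4me2 and MED1 in both genotypes. The second, on B3 at chr10:123159290-123159756 in an intron and nearest to Usp15, a deubiquitinase gene, also held 13 lists, with PAX5 at ranks 1855 (WT) and 3063 (IKDN).

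5 more of the 10 lay on B3 or B3A: near Pds5b, a cohesin regulator (12 lists), Tgif1, a homeodomain repressor (12), Neurl3, a ubiquitin ligase (12), Ehmt1, a histone methyltransferase (12), and Cytip (11). The region near Pkig, an inhibitor of protein kinase A (12 lists), took in B3 and B1_Mus1. The others were on MIR near Kansl1l (11 lists), where LMO2 ranked 53rd and LHX2 260th, and on B1F1, with the start of Wbscr17 as the nearest, 212 kb away (11 lists), where LHX2 ranked 62nd of 26653. H3K27ac peaks of WT cells overlapped 9 of the 10 regions, all but that on B1F1. Those of IKDN cells overlapped 8, all but that on B1F1 and that near Neurl3. Over all SINE peaks the shares were 23.6% in WT and 26.0% in IKDN cells, and over all factor peaks 44.8 and 49.2%. The 10 regions were chosen for holding peaks of most lists, so they do not stand for SINE regions at large.

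The genes nearest to members were tallied against lists of genes for this cell type. Of 19620 protein-coding genes that are nearest to a factor peak, 40.2% were nearest to a merged SINE region. The shares were 20 of 30 B lineage genes, 21 of 30 integrin and focal adhesion genes, 16 of 25 Hippo and YAP-TEAD genes, and 18 of 25 extra-lineage and progenitor factors. Genes with long surrounding regions collect more peaks of any kind, and this was not corrected for. Peaks of several lists at 1 place are counted singly, so the merged regions are given beside them. In the B lineage list Foxo1, a factor that drives Rag expression, had 15 SINE peaks in 9 regions. Bach2, a repressor of B cell differentiation, had 8 in 5 regions. Blnk, an adaptor of the pre-B cell receptor, had 6 in 2 regions, as did Il2ra. Among progenitor factors Lmo2 itself had 15 SINE peaks of 8 factors in 7 regions. Runx1 had 8 in 7 regions and Runx2 had 7 in 2.

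In the Hippo list Tead1 had 14 SINE peaks of 7 factors, TEAD1 among them, in 7 regions. The scaffold gene Amotl1 had 10 in 3 regions and the upstream tumour suppressor Nf2 had 8 in 2. In the adhesion list Vcl (vinculin) and Tns3 (a tensin) had 9 each, in 6 and 5 regions. Itgb1, the integrin beta 1 gene, had 7 in 4 regions, from PAX5 and TEAD1. To check the labelled cell type, an H3K4me3 peak lay within 2.5 kb of the start of 5 of 8 B lineage markers in both genotypes, without Vpreb1 and Pax5 in either. It also lay at 5 of 8 stromal markers in WT and 2 of 8 in IKDN cells, at 0 and 1 of 4 T cell markers, at 1 and 0 of 4 myeloid markers, and at 3 of 4 erythroid markers in both. The IKDN H3K4me3 library carries the antibody label of H3K4me1. The part of stromal cells in the differences between genotypes was not tested.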

How the data were processed

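Peaks were taken from 33 deposited tables of mouse ChIP-seq libraries (35 libraries, of which 2 inputs have no list). Per the file headers, each table was written by HOMER's annotation program and gives for each peak its coordinates, a Peak Score, a focus ratio or region size, the distance to the nearest gene start and a detailed annotation. The deposited Peak Score, a score with no stated scale, was used for ranks within a list. The focus ratio of the factor lists is a fraction as the authors deposited it, and was not used. Per the submitters' processing notes, bcl2fastq 1.8.3, BWA, STAR and HOMER were used, with builds mm10 and mm9. Which tool called the peaks, with which settings, is not given in the sources used here, nor is the number of reads. The positions fitted mm10: of 24033 members whose gene lies on the same chromosome in GRCm38.p6, the start site worked out from the deposited distance lay within 1000 bp of a gene end in 81.3%.

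Members are peaks whose detailed annotation names the class SINE. HOMER is known to annotate a peak by its centre, so a wide peak can be counted on an element that covers only part of it. Uncertain SINE names, marked with a question mark (10 peaks), were left out. Where a list ended over 10 Mb short of the furthest peak that any list had on a chromosome, that chromosome was taken as incomplete for it, and genotypes were compared on chromosomes complete in both. Regions were merged where peaks overlapped. Overlaps and merging were tested on simulated intervals. With 1 library per target and genotype there were no replicates to test or to leave out. The members, groups of elements and gene lists were chosen with earlier results of these data known. Elements named are the 10 most frequent and the first of each family, loci are the strongest SINE peak of each list and the 10 regions found in most lists, and genes are those nearest to these loci and the 3 genes of each list nearest to most SINE peaks. One locus under this rule is not reported here. Other elements and genes named were chosen after their values were seen. Alternatives changed the denominator, the peaks used, the overlap and the lists used. Python 3.11.15, pandas 2.3.3 and scipy 1.17.1 were used.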

Additional observations from a re-analysis of the deposited data

How the results depend on the processing

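No paired analysis was possible because each target and genotype has 1 library and no replicate numbers are shared. With 1 library a group, no library was left out within a group. The motif search around all members was not run, because no genome sequence was used here. Read depth and the scale of the score are not given in the sources used here, which limits comparisons of shares between lists.

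The pooled SINE share, 4.96% of WT and 4.56% of IKDN peaks, was 6.25 and 5.60% of intron and intergenic peaks, 3.62 and 3.39% of the top-scored 50%, and 2.92 and 2.52% with 2802 peaks in every list. Further alternatives were chosen after seeing the data. The share was 5.36 and 4.48% without the 3 incomplete lists, 5.32 and 6.03% without the 8 lists with a shared antibody label, and 4.44 and 4.05% without EBF1. The pools hold different factors, with Ikaros only in WT and LHX2 and LMO2 only in IKDN cells. Leaving out incomplete or shared-label lists changes them unequally. The WT and IKDN values of a pair therefore do not compare genotypes. Factors with a higher share in IKDN cells numbered 3 of 7, and 1 with equal top-scored numbers. In single factors the IKDN minus WT difference turned for ETS1 (-0.66 points with equal numbers, -0.19 among intron and intergenic peaks) and TEAD1 (-0.51 with equal numbers).

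In the top-scored 50% the family shares were 42.3% B2, 26.0% B4, 17.9% Alu and 9.96% MIR, and B3 held 58.7% (WT) and 56.3% (IKDN) of the EBF1 SINE peaks. With lists weighted equally they were 43.7% B2, 21.7% B4, 21.9% Alu and 9.48% MIR. Without the incomplete lists they were 47.2% B2, 23.7% B4 and 18.3% Alu. Without the lists with a shared label they were 51.3% B2, 21.5% B4, 17.96% Alu and 6.48% MIR. Without EBF1 they were 40.0% B2, 22.4% Alu and 8.88% MIR.

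Of the WT SINE peaks of 7 factors 62.5% were found in IKDN cells, and 52.8% the other way. Over all peaks of these factors the shares were 67.6 and 53.8%, and off repeats 65.7 and 46.2%. The alternatives were worked out for SINE peaks only. The SINE shares became 59.4 and 50.3% with 50% overlap of both peaks, and 65.6 and 54.7% with centres within 1000 bp. The second was 55.1% in the top-scored 50%, and without E2A, PAX5, IRF4 and ETS1 they were 66.4 and 51.5%. H3K27ac overlapped 21.9% (WT) and 23.9% (IKDN) of SINE peaks with the peak centre, and 38.4 and 41.9% in the top-scored 50%. Without the lists with a shared label the values were 24.9 and 23.6%. Pooled shares off repeats were not worked out for these alternatives. The cause of these shifts was not tested. The shares of regions with several factors stayed within their intervals in both alternatives.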
